A study of Mus musculus with 19 samples.

Results

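The strain by Cmpd17b interaction asks whether the kidney transcriptome of hypertensive BPH/2J mice responded to the compound by a different amount than that of normotensive BPN/3J mice. It is the Cmpd17b minus vehicle difference in BPH/2J less the same difference in BPN/3J, on the log2 scale, so a positive value means a higher effect in BPH/2J. Adult mice of both inbred strains, with no engineered allele in the labels, received vehicle or 50 mg/kg/day of Cmpd17b by intraperitoneal injection for 28 days. Blood pressure was followed by telemetry, and sex is not given in the labels. Each library came from the kidney of 1 mouse. The fit held 18 of the 19 libraries: 5 BPH/2J vehicle, 4 BPH/2J Cmpd17b, 4 BPN/3J vehicle and 5 BPN/3J Cmpd17b. The library left out, BPH/2J Cmpd17b replicate 1, carried heart muscle transcripts. Genes with at least 20 CPM (a gene's counts scaled to a common library size) there, and at least 20 times as high there as in any library from the 3 remaining groups, were also removed. That took out 241 of 40413 genes and left 16245 that passed the low-count filter.

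BPH/2J is a line selected for high blood pressure, with a strong sympathetic contribution, and BPN/3J is its normotensive control line. Formylpeptide receptors are G protein-coupled receptors best known from neutrophils and macrophages, where they sense formylated bacterial and mitochondrial peptides and also respond to annexin A1, a mediator of the resolution of inflammation. Cmpd17b is a small molecule that activates these receptors. In a 2 by 2 design the interaction draws on the spread of all 4 groups, so its error is larger than that of either treatment effect.

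Promoters of 4 genes are shown because interferon-regulated genes were among the most negative interactions and because E-boxes carry the feedback of the circadian clock. The sequences are RefSeq promoters of GRCm38.p6, 300 bases each around the annotated start, which lies 50 bases from the 3' end, and each is the first listed for its gene. This build is not that of the counts. Irf1 lies at chr11:53769764-53770063 (plus strand), Tgtp1 at chr11:48992197-48992496 (minus strand), Per1 at chr11:69098699-69098998 (plus strand) and Ciart at chr3:95882179-95882478 (minus strand). Capitals mark the gamma-activated site TTCNNNGAA, the core GAAANNGAA of the interferon-stimulated response element, or the E-box CACGTG, searched on both strands.
Irf1: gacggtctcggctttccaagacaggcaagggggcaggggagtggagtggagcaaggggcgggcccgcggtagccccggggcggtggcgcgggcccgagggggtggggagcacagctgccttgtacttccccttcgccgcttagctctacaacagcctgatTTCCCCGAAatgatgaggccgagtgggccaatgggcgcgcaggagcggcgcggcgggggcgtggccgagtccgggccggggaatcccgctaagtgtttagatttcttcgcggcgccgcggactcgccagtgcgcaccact
Tgtp1: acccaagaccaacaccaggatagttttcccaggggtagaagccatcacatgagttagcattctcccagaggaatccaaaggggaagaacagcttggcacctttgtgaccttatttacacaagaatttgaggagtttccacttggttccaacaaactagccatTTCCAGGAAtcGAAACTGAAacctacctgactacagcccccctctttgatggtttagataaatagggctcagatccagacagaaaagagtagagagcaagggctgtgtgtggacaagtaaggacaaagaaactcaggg
Per1: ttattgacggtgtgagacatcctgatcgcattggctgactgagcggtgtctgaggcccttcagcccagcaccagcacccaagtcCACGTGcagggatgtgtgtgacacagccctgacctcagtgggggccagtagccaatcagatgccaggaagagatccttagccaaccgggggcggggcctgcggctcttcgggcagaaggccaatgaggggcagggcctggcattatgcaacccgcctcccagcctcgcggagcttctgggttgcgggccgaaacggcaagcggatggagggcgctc
Ciart: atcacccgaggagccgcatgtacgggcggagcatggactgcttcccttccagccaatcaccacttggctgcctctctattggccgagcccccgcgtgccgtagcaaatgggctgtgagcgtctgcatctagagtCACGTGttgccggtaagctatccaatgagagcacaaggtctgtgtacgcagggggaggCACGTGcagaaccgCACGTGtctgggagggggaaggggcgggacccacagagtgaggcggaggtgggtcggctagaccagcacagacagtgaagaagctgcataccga
The Irf1 window held 1 gamma-activated site, from -90 to -82 relative to the start. In Tgtp1 such a site lay from -88 to -80 and an interferon element from -77 to -69, and these share no base. Per1 had 1 E-box, from -166 to -161, and Ciart had 3, the nearest to the start from -44 to -39. Of 16245 tested genes, 12237 matched a promoter by symbol, and 7.09% of those promoters held the gamma-activated letters, 7.3% the interferon letters and 9.57% the E-box. A match is a description of letters, not of a bound site.

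The left-out library correlated with no other above 0.7605, whereas the lowest correlation between any pair of the other 18 was 0.9274. Of 30 heart muscle genes, 28 were removed, 1 was below the filter and 1, Myl4, stayed with an interaction of -0.30 (SE 0.51), or -0.13 without BPH/2J vehicle replicate 5, which is described next. Just inside the removal threshold were Pde1c, Slc41a3 and Pygb, at 20.1, 20.2 and 20.3 times the highest level elsewhere. Just outside were Plaat1, Asb15 and Gpr27, at 19.8, 19.2 and 18.6 times. Myh6, a heart myosin among the removed genes, stood at 24.7 to 28.3 CPM in the 4 treated BPH/2J libraries that were kept and at 1.84 CPM or less in the 14 vehicle or BPN/3J libraries. The kept libraries were kidney by their markers, with 14 proximal tubule genes summing to at least 34000 CPM in each.

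Another library departed in part from its strain label. BPH/2J vehicle replicate 5 contained transcripts that the other 8 BPH/2J libraries nearly lacked. Gm15772 was at 127 CPM in it, at 1.64 to 6.16 CPM in the other BPH/2J libraries and at 178 to 529 CPM in BPN/3J. Ftl1-ps2 was at 17.4 CPM, against 0.753 CPM or less and 34.5 CPM or more. Across 15 genes that were at 2 CPM or more in every BPN/3J library and at 10 times or more every other BPH/2J library, its median level was 29.4% of the BPN/3J mean (range 1.23% to 45.1%). The same measure in the 9 BPN/3J libraries, with 15 or 16 genes private to BPH/2J, gave medians of 0.603% to 1.78%. It gave 0% to 1.31% in the other 8 BPH/2J libraries, where only 2 genes met the rule. For those libraries the rule also required low levels in BPH/2J vehicle replicate 5. Genes raised in replicate 5 were thus left out there, and the values are not for the same set as its 29.4%. This measure was added with the values in view. Values without this library are given below for several genes and lists that it moved.

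Against this background, no gene had an interaction that passed an adjusted p of 0.05 in edgeR's quasi-likelihood test (0 of 16245 higher, 0%, and 0 lower, 0%). The smallest adjusted p was 1. At an unadjusted p under 0.05 there were 143 genes with a positive interaction (0.88%) and 345 with a negative one (2.12%), 488 in all (3%). DESeq2 and limma-voom also called 0 genes. DESeq2, run without the low-count filter, had 715 of 29055 genes at an unadjusted p under 0.05, and limma-voom had 400 of 16245. Leaving out BPH/2J Cmpd17b replicate 5, whose mitochondrial share was above that of the other 17, raised the 488 to 958, with 0 called. With the heart-enriched genes put back, 5 were called, all heart muscle genes that the rule removes. Neither treatment effect had a called gene: 555 genes were under that unadjusted p in BPH/2J and 410 in BPN/3J. No gene had treated and vehicle ranges that were apart in both strains and in opposite directions (0 genes, 0%). Ranges were apart in BPH/2J for 112 genes (0.689%) and in BPN/3J for 291 (1.79%), with 2 genes higher and 2 lower under Cmpd17b in both.

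The precision behind this count differed by expression level. In the 12322 genes whose mean log2 CPM reached 1, the median SE of the interaction was 0.23, and the 95% interval lay within 1 log2 unit of 0 for 10201 (82.8%). The estimate itself reached 1 in size for 145 (1.18%). Without BPH/2J vehicle replicate 5, 106 of those 145 stayed at 1 or more in the same direction. Other libraries left out gave similar numbers: 112 without BPH/2J Cmpd17b replicate 5 and 113 without BPH/2J vehicle replicate 2. The highest was 143, without BPH/2J vehicle replicate 3. Again 0 genes were called without BPH/2J vehicle replicate 5, and 490 were under the unadjusted p. Gm15772 is a case: its interaction was -3.23 with all 18 libraries and -0.12 without that one. Over the 12322 genes the effects in the strains, which share no library, had a Pearson correlation of -0.029 and a Spearman correlation of 0.0812, and 52.6% had the same sign. Genes are not independent replicates, so these are descriptions.

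**Figure D1:**
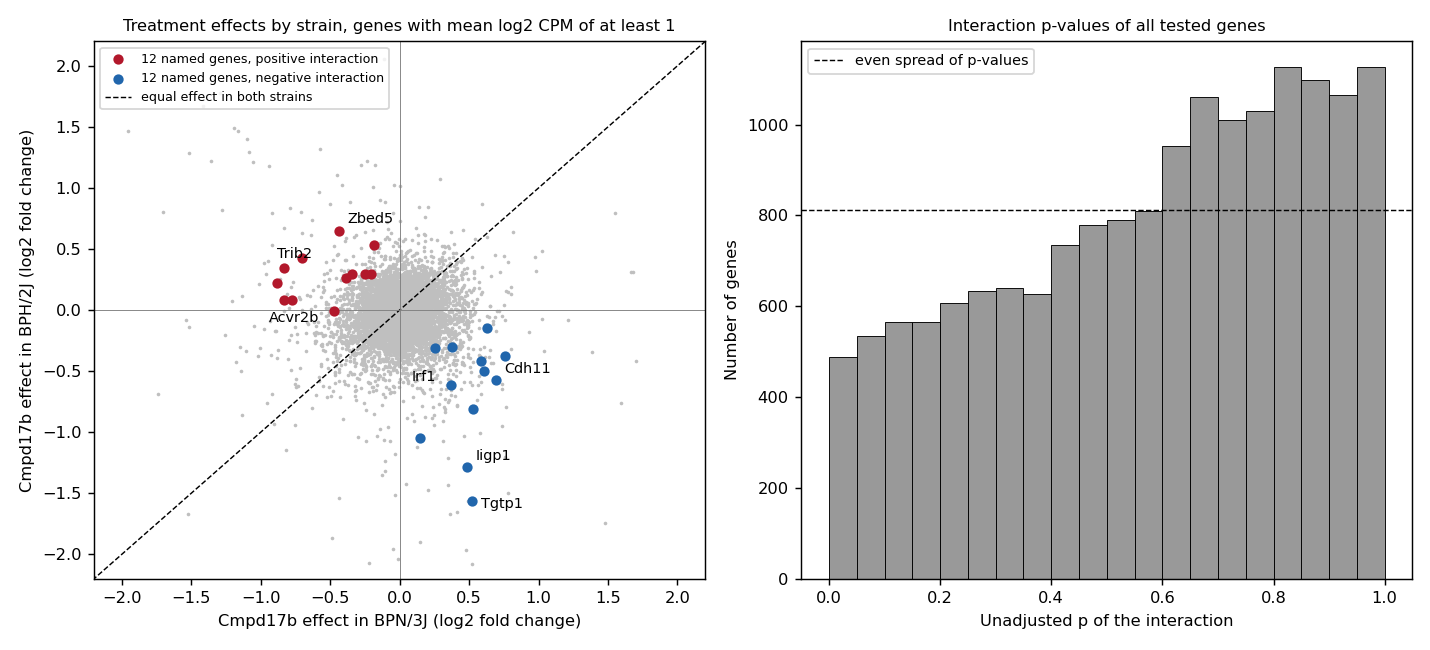
Left, the Cmpd17b effect (log2 fold change) in BPH/2J against that in BPN/3J for genes whose mean log2 CPM reached 1; red and blue points are the 12 genes with the smallest p in each direction, the dashed line marks equal effects, and 11 genes lie beyond the axes at 2.2. Right, unadjusted interaction p-values of all 16245 tested genes in 20 equal bins, with the dashed line at an even spread; the lowest bin holds 488 genes, below the line.

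Since no gene passed, the genes that follow were chosen as those with the smallest unadjusted p in each direction, with p-values as descriptions. The 12 with positive interactions were Zbed5, Trib2, Tgm1, Acvr2b, Rgs3, Bdnf, Zfp69, Pms1, Srd5a2, Smim10l2a, Pdzrn3 and Gtdc1, with interactions from 0.47 to 1.17. In every 1 of them the effect in BPN/3J was below 0, and in Srd5a2 the effect in BPH/2J was -0.01. Trib2 encodes a Tribbles pseudokinase. It stood at 128, 81.7, 140 and 155 CPM in BPN/3J vehicle and at 60.6, 88.6, 70.6, 49.3 and 85 CPM in BPN/3J Cmpd17b. In BPH/2J it stood at 48.8, 48.9, 71.1, 42 and 66.2 CPM with vehicle and at 79.7, 87.1, 66.6 and 46.8 CPM with Cmpd17b. The ranges overlapped in both strains, and vehicle BPN/3J mice held the 3 highest values. Its interaction was 1.17 (SE 0.31, unadjusted p = 0.001326).

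Tgm1, Acvr2b and Srd5a2 had BPN/3J ranges that were apart, with lower values under Cmpd17b, and were already known from the BPN/3J effect. Tgm1, a transglutaminase that crosslinks proteins, ran from 31.5 to 50 CPM in BPN/3J vehicle and from 20.1 to 27.5 CPM with Cmpd17b. In BPH/2J it ran from 17.5 to 33 CPM and from 24.9 to 30.2 CPM, and its interaction was 0.86 (SE 0.24). Acvr2b, a receptor for activins and related ligands, ran from 25.2 to 40.7 CPM and from 16.1 to 23.9 CPM in BPN/3J. Its BPH/2J ranges, 12.9 to 24.4 CPM and 15.8 to 25.5 CPM, overlapped, with an interaction of 0.91 (SE 0.27). Srd5a2, which makes dihydrotestosterone from testosterone, stood at 33.2, 26.6, 30.9 and 30.5 CPM in BPN/3J vehicle and at 20.3, 25.6, 22.1, 20.2 and 20.7 CPM with Cmpd17b. Both BPH/2J groups lay between 9.77 and 12.2 CPM. Its interaction of 0.47 (SE 0.15) is a difference between ratios: the level in BPH/2J was below that of every BPN/3J library in either arm.

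Of the other positive genes, Bdnf, a neurotrophin, ran from 5.69 to 11 CPM in BPN/3J vehicle and from 4.61 to 5.33 CPM with Cmpd17b, with an interaction of 1.12 (SE 0.34). Rgs3, which limits G protein signalling, ran from 10.5 to 12.9 CPM and from 7.48 to 10.1 CPM there, with an interaction of 0.65 (SE 0.19). BPN/3J ranges were apart for 7 of the 12: Tgm1, Acvr2b, Srd5a2, Bdnf, Rgs3, Zfp69 and Gtdc1. They were apart for 1.79% of all tested genes, but the 12 were chosen by p in these same libraries, which favours such ranges. BPH/2J ranges were apart for 1 of them, beside 0.689% of all tested genes. This was Smim10l2a, at 7.07 to 10.2 CPM with vehicle and 10.3 to 13.8 CPM with Cmpd17b. Smim10l2a, Zbed5, Pdzrn3 and Gtdc1 had the larger effect in BPH/2J, at 0.53, 0.65, 0.30 and 0.29. Their effects in BPN/3J were -0.18, -0.44, -0.21 and -0.25. Dtx4, Slc16a1 and Fgf18 were other genes of the BPN/3J effect with ranges apart in that strain. Dtx4, a ubiquitin ligase of Notch signalling, had an interaction of -0.63 (SE 0.22), Slc16a1, a lactate transporter, of -0.54 (SE 0.29), and Fgf18, a growth factor, of 1.24 (SE 0.54).

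The 12 genes with negative interactions were Islr, Tgtp1, Prob1, Cmtm7, Srpx2, Iigp1, Kif23, Padi2, Tap2, Cdh11, Ppp1r18 and Irf1, with interactions from -2.08 to -0.56. Interferon-gamma response genes were among them, the largest being Tgtp1, a GTPase of cell-autonomous immunity whose near-identical copy makes the count uncertain. Tgtp1 stood at 2, 9.59, 5.18, 3.94 and 15.8 CPM in BPH/2J vehicle and at 2.05, 2.05, 2.19 and 3.65 CPM in BPH/2J Cmpd17b. It stood at 5.65, 9.35, 6.75 and 6.43 CPM in BPN/3J vehicle and at 7.58, 9.9, 8.1, 7.39 and 17.6 CPM with Cmpd17b. The ranges overlapped in both strains, and the highest value of each strain belonged to 1 library, BPH/2J vehicle replicate 5 or BPN/3J Cmpd17b replicate 5. The interaction was -2.08 (SE 0.62) and, without BPH/2J vehicle replicate 5, -1.60.

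Iigp1, a related GTPase, had the same arrangement, with 16.5 CPM in BPH/2J vehicle replicate 5 and 16.6 CPM in BPN/3J Cmpd17b replicate 5. Its other 4 BPH/2J vehicle libraries ran from 3.06 to 9.48 CPM and its treated ones from 2.8 to 4.34 CPM. The interaction was -1.77 (SE 0.55), and -1.34 without BPH/2J vehicle replicate 5. Irf1, the transcription factor whose promoter is printed above, ran from 7.24 to 18.2 CPM in BPH/2J vehicle and from 5.23 to 9.37 CPM with Cmpd17b. In BPN/3J it ran from 9.74 to 10.6 CPM with vehicle and from 10.9 to 17.7 CPM with Cmpd17b, ranges that did not overlap. Its interaction was -0.98 (SE 0.33), and -0.81 without BPH/2J vehicle replicate 5. Tap2, a subunit of the transporter that supplies peptides to MHC class I, had an interaction of -0.56 (SE 0.18).

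The next 3 genes of this response were added with values in view. Igtp, another immunity GTPase, was at 26.1 CPM in BPH/2J vehicle replicate 5, at most 9.33 CPM in the other BPH/2J libraries and at 24.8 CPM in BPN/3J Cmpd17b replicate 5. Its interaction was -1.22 with all libraries and -0.67 when that BPH/2J library was left out. Tap1 had -0.98 and -0.66 in the same order. Gbp2, a guanylate-binding protein, was at 8.13 CPM in BPH/2J vehicle replicate 2 and at 9.91 CPM in BPN/3J Cmpd17b replicate 5, with an interaction of -1.31 (SE 0.48). Isg15, a ubiquitin-like interferon product, had -0.96 (SE 0.51). The list of 17 interferon-stimulated genes, mostly of the type I response, had 16 negative members, a median of -0.40 and 0 at an unadjusted p under 0.05. Its promoters held the interferon letters in 8 of 11 matched genes (72.7%), whereas those of the 12 negative genes held them in 2 of 8.

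**Figure D2:**
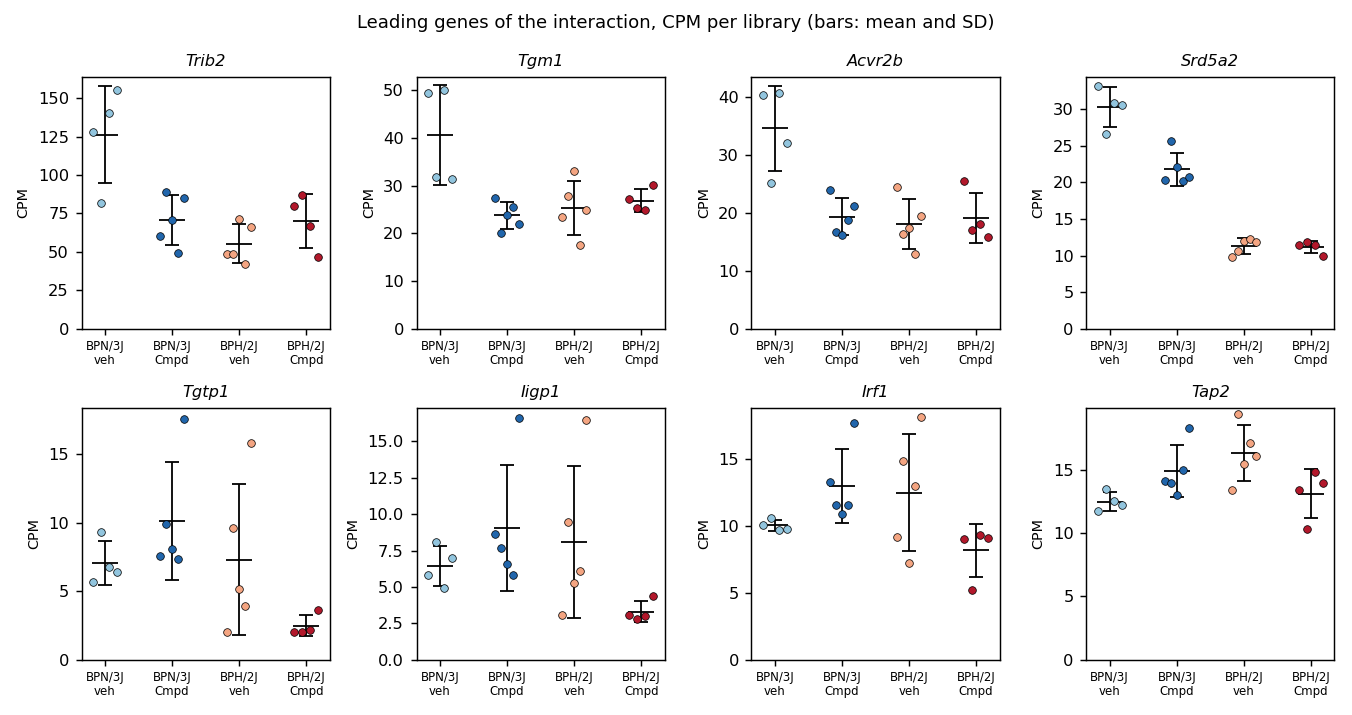
CPM in each library (points) with the group mean and SD (bars) for 4 genes with a positive interaction (top) and 4 with a negative one (bottom). The vehicle BPN/3J group is highest in the top row, as for Srd5a2 at 26.6 to 33.2 CPM, and 1 library stands above the others in BPH/2J vehicle and in BPN/3J Cmpd17b for Tgtp1 and Iigp1.

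Of the other negative genes, Islr, a secreted leucine-rich repeat protein of mesenchymal cells, ran from 1.38 to 2.09 CPM in BPN/3J vehicle and from 2.18 to 3.57 CPM with Cmpd17b. Its BPH/2J ranges, 2.06 to 3.95 CPM and 1.87 to 3.07 CPM, overlapped, and the interaction was -1.13 (SE 0.33). Cdh11, a mesenchymal cadherin, ran from 2.48 to 3 CPM and from 3.49 to 5.9 CPM in BPN/3J, with an interaction of -1.26 (SE 0.41). Srpx2, a secreted sushi-repeat protein, had an interaction of -1.10 (SE 0.34) and BPN/3J ranges that were apart, higher under Cmpd17b. Kif23, a kinesin of cytokinesis, had -1.34 (SE 0.43), and -1.11 without BPH/2J vehicle replicate 5. Padi2, a protein deiminase, ran from 0.873 to 2.47 CPM in BPH/2J vehicle and from 0.546 to 1.04 CPM with Cmpd17b, far below its 5.46 to 9.88 CPM in BPN/3J. Its interaction was -1.20 (SE 0.39), and -0.98 without BPH/2J vehicle replicate 5, the library at 2.47 CPM. Of the 12, only Prob1 had BPH/2J ranges that were apart, beside 0.689% of all tested genes. Its ranges were 38.9 to 54.2 CPM and 32.9 to 37.9 CPM, with an interaction of -0.68 (SE 0.20). Cmtm7 and Ppp1r18, a phosphatase regulatory subunit, had -0.77 (SE 0.23) and -1.002 (SE 0.33), with overlapping ranges in both strains. Of 27 tested genes of the extracellular matrix list, 26 had a negative interaction, with a median of -0.59 against 0.00277 over all tested genes. Of these 27, 2 were negative at an unadjusted p under 0.05, beside 2.12% of all tested genes. There were 3 with limma-voom and 7 with 1 surrogate variable. Over all 16245 genes and both directions, those settings had 400 and 997 under that p.

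Matrix values depended on single libraries. Col3a1, a fibrillar collagen, stood at 6.72, 46.5, 12.4, 14.2 and 10.7 CPM in BPH/2J vehicle and at 12.2, 8.11, 10.3 and 17 CPM with Cmpd17b. BPH/2J vehicle replicate 2 was the high one. Its interaction was -1.13 (SE 0.59), and -0.41 without that library. Col1a1 had -0.89 (SE 0.63) and -0.08 without that library. Fn1, the fibronectin gene, had -0.24 (SE 0.46) and 0.05 without it. The list median was -0.33 without BPH/2J vehicle replicate 2. It was -0.91 when BPH/2J Cmpd17b replicate 5 was left out, where 16 members were under an unadjusted p of 0.05. In that setting 655 of all 16529 tested genes were negative under that p, against 345 with all 18 libraries. Col4a1, of the basement membrane, and Dcn, a small proteoglycan, were the 2 members under that p, with interactions of -0.42 and -0.98. In bulk tissue, fewer cells of a type and less RNA per cell cannot be told apart.

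Antigen presentation by MHC class II had the lowest median of the pathway lists, at -1.09. All 9 tested genes were negative and 6 were under an unadjusted p of 0.05, against 2.12% of all tested genes in that direction. DESeq2 put 7 of the 9 MHC class II genes under that p, 1 surrogate variable 4 and limma-voom 1. H2-DMa, which helps load peptides, stood at 2.94, 8.71, 4.1, 4.03 and 6.19 CPM in BPH/2J vehicle and at 2.78, 1.97, 3.47 and 3.3 CPM with Cmpd17b. In BPN/3J it ran from 6.19 to 7.77 CPM and from 5.33 to 11 CPM. H2-DMb2 had the largest interaction of the list, -1.87 (SE 0.71), with 4.72 CPM in BPH/2J vehicle replicate 2 and at most 1.64 CPM in the other BPH/2J libraries. Without that library its interaction was -1.07. The list median was then -0.64, with 0 members under the unadjusted p, and it was -0.86 without BPN/3J Cmpd17b replicate 5, with 1. Summed levels ran from 104 to 419 CPM in BPH/2J vehicle, 76.9 to 159 CPM in BPH/2J Cmpd17b, 237 to 246 CPM in BPN/3J vehicle and 223 to 472 CPM in BPN/3J Cmpd17b.

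Macrophage markers leaned with this list. All 10 macrophage genes were negative, with a median of -0.97 that was -0.32 without BPH/2J vehicle replicate 2. At an unadjusted p of 0.05 there were 3, beside 2.12% of all tested genes in that direction. There were 0 with limma-voom, 0 with the animal number as a covariate and 0 without that library. Their summed level was 62.4 to 197 CPM in BPH/2J vehicle and 62.4 to 76.8 CPM in BPH/2J Cmpd17b. In BPN/3J it was 70.8 to 82.4 CPM with vehicle and 69.3 to 97 CPM with Cmpd17b. C1qa, a complement subunit made by macrophages, was at 18.9 CPM in BPH/2J vehicle replicate 2 and at 3.79 to 7.29 CPM in the other BPH/2J libraries. B cell markers (6 of 6 negative, median -0.64) and T and NK cell markers (8 of 8, -0.47) had the same sign. The B cell median ran from -0.91 to -0.31 when 1 library was left out, without BPN/3J vehicle replicate 4 and replicate 3. The T and NK cell median ran from -1.39 without BPH/2J Cmpd17b replicate 5 to -0.13 without BPN/3J Cmpd17b replicate 5, where 7 genes were tested. The part of immune cell number in the MHC class II values was not tested.

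Injury and cytokine genes leaned the same way. Of 17 tubular injury genes 16 were negative, 2 under an unadjusted p of 0.05 (2.12% of all tested genes), with a median of -0.52 that was -0.12 without BPH/2J vehicle replicate 2. Those 2, C3 and Vcam1, were not under that p in limma-voom, where the tubular injury list had 0, and DESeq2 gave them no p. The list also had 0 with 1 surrogate variable and with the animal number as a covariate. C3, the central complement component, was at 104 CPM in that library and at 6.15 to 11.9 CPM in the other vehicle BPH/2J libraries. Its interaction was -2.60 (SE 0.98), and -1.04 without it. Vcam1, an adhesion molecule of injured tubules and activated endothelium, had -1.78 (SE 0.77) and -0.52 without it. Havcr1, the injury marker KIM-1, had -0.05 (SE 0.60), or -0.17 without BPH/2J vehicle replicate 5, and Lcn2, another, had -0.83 (SE 0.88) and 0.32 without BPH/2J vehicle replicate 2. Among 10 cytokine and adhesion genes 9 were negative (median -0.58). Of these, 3 were under the unadjusted p, beside 2.12% of all tested genes in that direction. There were 2 with limma-voom, and 0 to 5 when any 1 library was left out. Cxcl10, an interferon-induced chemokine, ran from 0.97 to 2.79 CPM in BPH/2J vehicle and from 0.682 to 0.869 CPM with Cmpd17b, ranges apart, with an interaction of -1.01 (SE 0.44). Csf1, a macrophage growth factor, had -0.65 (SE 0.26) and Icam1 -0.52 (SE 0.27).

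**Figure D3:**
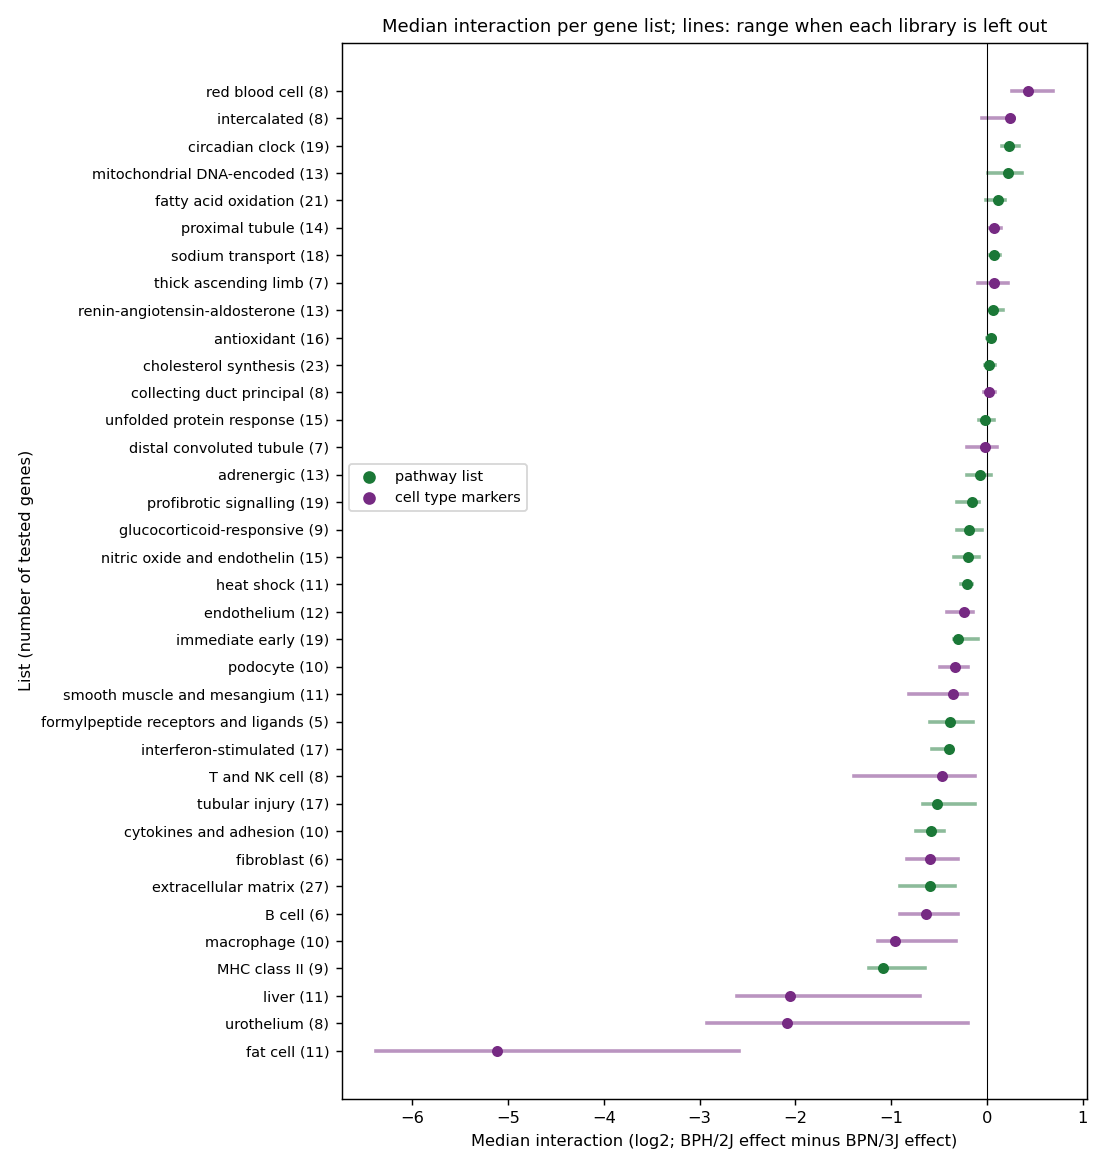
Median interaction (log2) of each gene list with 5 or more tested members (points; green, pathways; purple, cell type markers), with lines spanning the medians when each of the 18 libraries is left out in turn. Fat cell, urothelium and liver markers lie lowest, at -5.11, -2.09 and -2.06, with long lines, and tubule and transport lists lie near 0.

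The fat cell, urothelium and liver lists had the most negative medians, whereas the adrenal cortex list, with 4 tested genes, had a positive one of 0.53. Fat cell markers had a median of -5.11, with 11 of 11 negative. Of these, 10 were under an unadjusted p of 0.05, beside 2.12% of all tested genes in that direction. With limma-voom the fat cell median was -3.10, with 1 under that p. There were 5 with 1 surrogate variable and 4 in DESeq2, which gave a p to 5 of them. Over all genes and both directions, limma-voom had 400 of 16245 under that p, 1 surrogate variable 997 of 16245 and DESeq2 715 of 29055. Cfd, the adipsin gene, stood at 0.484, 2.32, 7.65, 35 and 2.73 CPM in BPH/2J vehicle and at 0, 1.06, 0.663 and 0.579 CPM with Cmpd17b. It stood at 1.28, 11.2, 1.77 and 2.33 CPM in BPN/3J vehicle and at 50.6, 2.21, 1.31, 2.22 and 5.36 CPM with Cmpd17b. High values belonged to BPH/2J vehicle replicate 4 and BPN/3J Cmpd17b replicate 1, and the ranges overlapped in both strains. The same libraries were high for Adipoq, the adiponectin gene, at 8.42 and 13.6 CPM, whereas 2 treated BPH/2J libraries had 0. The fat cell median was -2.59 without BPN/3J Cmpd17b replicate 1 and -2.89 without BPH/2J vehicle replicate 4. Several members were near 0 in treated BPH/2J, so these fitted values are no firm sizes. Summed fat markers ran from 56.5 to 330 CPM in BPH/2J vehicle, 71.5 to 92.2 CPM in BPH/2J Cmpd17b, 44.6 to 117 CPM in BPN/3J vehicle and 75.5 to 412 CPM in BPN/3J Cmpd17b.

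Urothelial markers, of the lining of the renal pelvis, were negative in 8 of 8, with a median of -2.09 that became -0.20 without BPH/2J vehicle replicate 4. Upk3a, a uroplakin, was at 11.4 CPM in that library and at 1.31 CPM or less in the other 8 BPH/2J libraries. Liver markers were negative in 11 of 11 (median -2.06) and had a median of -0.70 without BPH/2J vehicle replicate 1. Their summed level was 259 to 568 CPM in BPH/2J vehicle and 270 to 336 CPM in BPH/2J Cmpd17b. In BPN/3J it was 25.9 to 35.2 CPM with vehicle and 26.5 to 43.5 CPM with Cmpd17b, so the strains differed in every library. Cyp11a1, which starts steroid synthesis in the adrenal cortex, was at 2.61 CPM in BPN/3J vehicle replicate 2 and at 0.507 CPM or less in every other library. Of the 4 tested adrenal cortex genes 3 were positive, or 2 with limma-voom. Without that library 1 was positive and the adrenal cortex median was -0.25. The part of attached tissue in the interaction of other genes was not tested.

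Neutrophil markers went the other way, although only 3 of 11 passed the filter. S100a8 stood at 0.182, 0.293, 0.597, 0.422 and 0.952 CPM in BPH/2J vehicle and at 1.24, 2.2, 1.6 and 1.45 CPM with Cmpd17b. S100a9, its partner in calprotectin, ran from 0.469 to 1.99 CPM and from 2.31 to 4.23 CPM. Ranges were apart in BPH/2J for both and overlapped in BPN/3J. The interactions were 1.65 (SE 0.63, unadjusted p = 0.01779) and 1.44 (SE 0.56, unadjusted p = 0.01965), and they stayed between 1.13 and 2.05 when any 1 library was left out. Both were singled out with their values in view. Csf3r, the third that passed, had 0.13 (SE 0.47). The neutrophil genes Retnlg, Mpo, Elane, Ngp, Camp, Cxcr2, Ly6g and Il1r2 did not pass the filter. Red blood cell markers were positive in 8 of 8, with a median of 0.43.

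**Figure D4:**
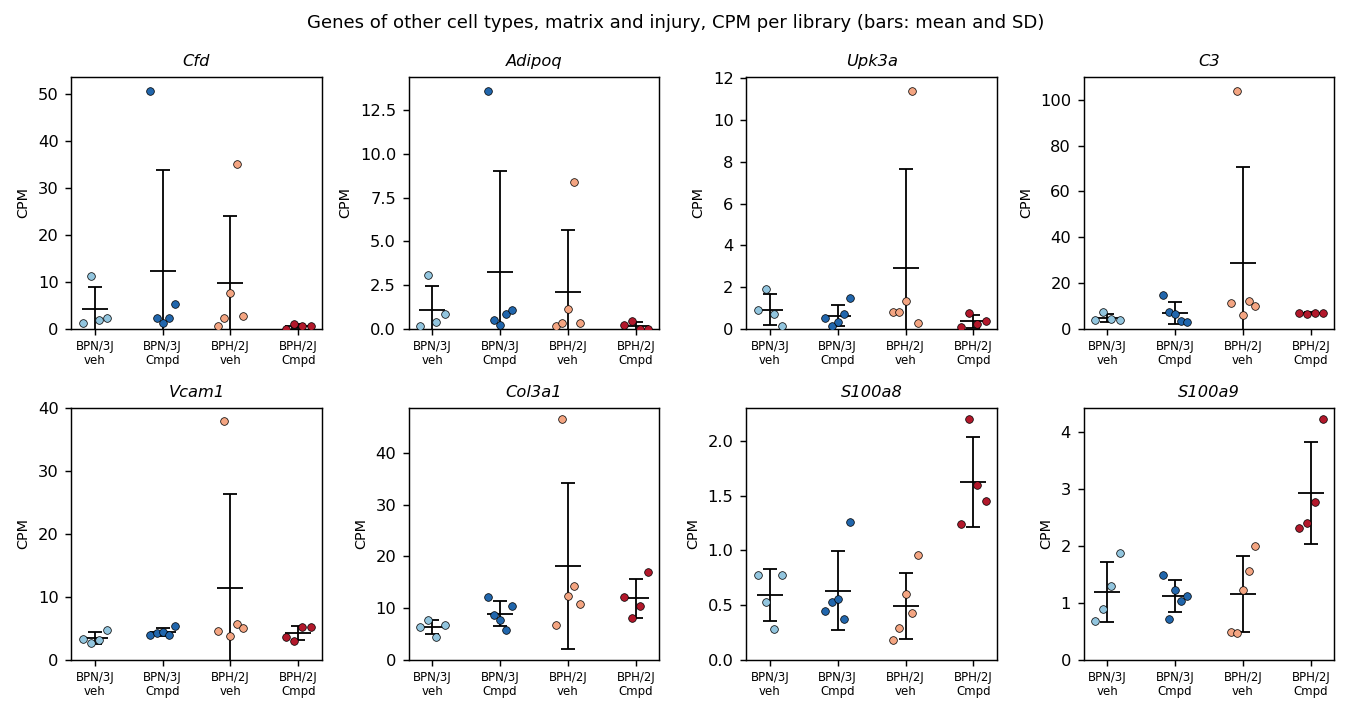
CPM in each library (points) with the group mean and SD (bars; lower ends are cut at 0) for genes of fat (Cfd, Adipoq), urothelium (Upk3a), injury (C3, Vcam1), matrix (Col3a1) and neutrophils (S100a8, S100a9). Single libraries set the group means of the first 6 genes, for example C3 at 104 CPM in 1 vehicle BPH/2J library, whereas S100a8 and S100a9 are higher in all 4 treated BPH/2J libraries than in the 5 vehicle ones.

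The circadian clock runs on a loop in which Bmal1 with Clock or Npas2 binds E-boxes and drives Per, Cry and Nr1d genes, whose products feed back on it. All 19 listed genes were tested, and 13 had a positive and 6 a negative interaction, with a median of 0.23. At an unadjusted p under 0.05 were 1 positive gene and 2 negative ones, beside 0.88% and 2.12% of all tested genes. With 1 surrogate variable there were 4 positive circadian clock genes, where 997 of 16245 tested genes were under that p in either direction. In BPN/3J the median effect over the list was -0.29 and in BPH/2J it was -0.03. Collection times are not in the labels.

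Of the activators, Npas2 had the largest interaction. It stood at 1.38, 3.46, 1.42 and 1.74 CPM in BPN/3J vehicle and at 4.03, 11.3, 6.98, 5.76 and 3.97 CPM with Cmpd17b. In BPH/2J it ran from 2.45 to 5.67 CPM with vehicle and from 2.09 to 5.63 CPM with Cmpd17b. Only the BPN/3J ranges were apart, and the interaction was -1.37 (SE 0.52, unadjusted p = 0.01779). Bmal1 was in the same direction, at -0.75 (SE 0.64), with 0.967 to 3.37 CPM and 2.38 to 9.43 CPM in BPN/3J, and effects of 1.55 in BPN/3J and 0.80 in BPH/2J. Without BPN/3J Cmpd17b replicate 2, at 9.43 CPM, the Bmal1 value was -0.41, and without BPN/3J vehicle replicate 2 it was -1.28. Clock had -0.09 (SE 0.13). Rora, which activates Bmal1, had 0.32 (SE 0.18).

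Of the feedback genes, Per1 differed in sign from the rest of its family. It stood at 25.5, 18.8, 20, 30.1 and 36 CPM in BPH/2J vehicle and at 12.3, 15.4, 15.4 and 17.9 CPM with Cmpd17b, ranges apart. In BPN/3J it ran from 15.2 to 23 CPM and from 14.1 to 23.9 CPM, and the interaction was -0.65 (SE 0.29, unadjusted p = 0.03598). Per2 was lower under Cmpd17b in both strains, with effects of -0.69 in BPH/2J and -0.92 in BPN/3J and an interaction of 0.23 (95% interval -0.42 to 0.87), or 0.39 without BPH/2J vehicle replicate 5. Per3 had 0.40 (SE 0.30), Cry1 0.47 (SE 0.44) and Cry2 0.22 (SE 0.23). Nr1d1, a repressor of Bmal1, had -0.14 (SE 0.32), or -0.23 without BPH/2J vehicle replicate 5, and Nr1d2 had 0.17 (SE 0.17).

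Output genes and further repressors were mostly positive. Dbp, a clock-driven transcription factor, stood at 174, 120, 180 and 179 CPM in BPN/3J vehicle and at 120, 44, 68, 108 and 136 CPM with Cmpd17b, with an interaction of 0.58 (SE 0.36). BPH/2J Cmpd17b replicate 5 was the high one of its group, at 162 CPM against 93 to 101 CPM, and without it the Dbp interaction was 0.37. Ciart, with 3 E-boxes in the window above, had 0.65 (SE 0.56), Bhlhe41 0.78 (SE 0.39) and Bhlhe40 0.33 (SE 0.42). Tef had 0.27 (SE 0.19), Hlf 0.19 (SE 0.17) and Nfil3 -0.13 (SE 0.46), or 0.02 without BPH/2J vehicle replicate 5. The 95% interval lay within 1 log2 unit of 0 for 9 of the 19 genes. Of 16 clock genes with a promoter, 5 held an E-box (31.2%), namely Bhlhe41, Ciart, Cry1, Per1 and Tef. These 5 had interactions of both signs.

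**Figure D5:**
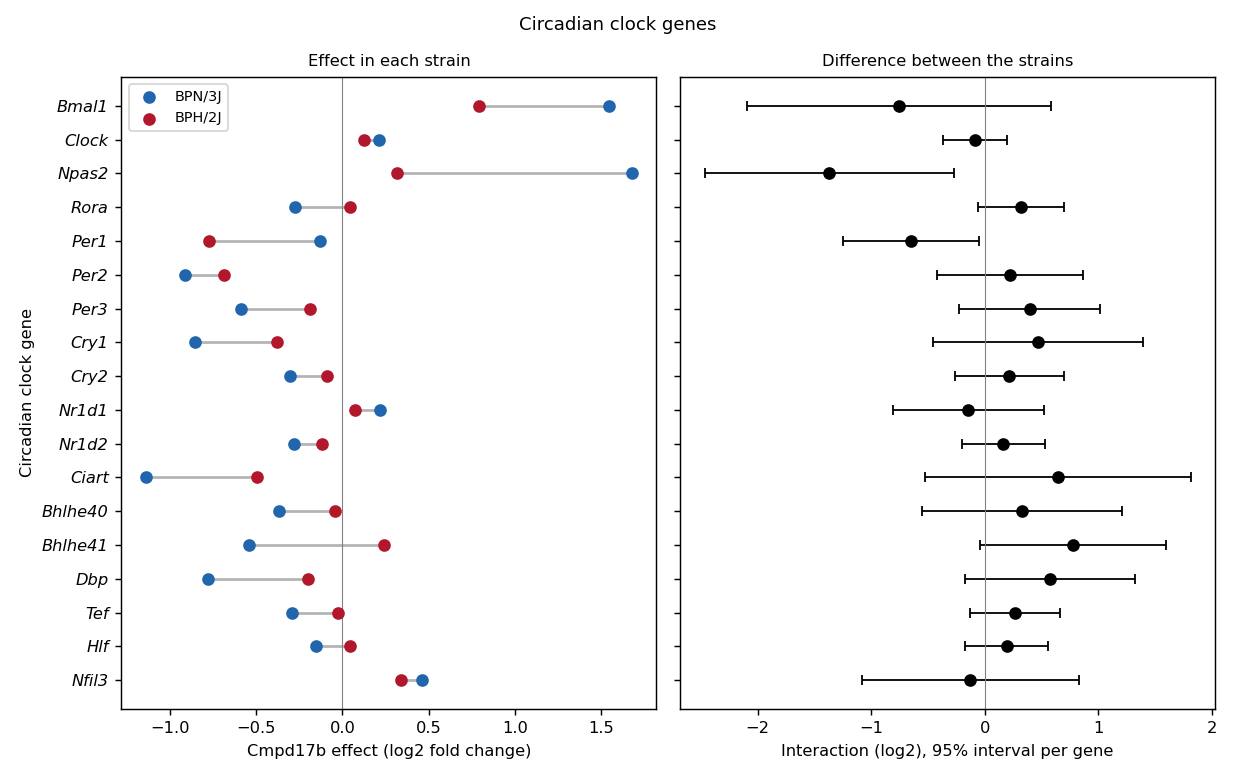
Circadian clock genes: left, the Cmpd17b effect (log2 fold change) in BPN/3J (blue) and BPH/2J (red); right, the interaction with its 95% interval for each gene, not adjusted for the number of genes. The BPN/3J point of Npas2 lies at 1.68 and its BPH/2J point at 0.31, and of the 18 genes drawn, the interval excludes 0 for Npas2 and Per1.

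All 18 sodium transport genes were tested, with 0 under an unadjusted p of 0.05, a median of 0.07 and a range from -0.10 to 0.23. For 17 of them the 95% interval lay within 1 log2 unit of 0. Slc9a3, the apical sodium-proton exchanger of the proximal tubule, had 0.23 (SE 0.19), and Kcnj10, a basolateral potassium channel, had 0.22 (SE 0.36). Without BPH/2J vehicle replicate 5 the sodium transport median was 0.03 and Kcnj10 had 0.15. Marker medians were 0.07 for the proximal tubule, 0.07 for the thick ascending limb, -0.02 for the distal convoluted tubule and 0.02 for collecting duct principal cells. Without the same library the proximal tubule median was 0.15 and the thick ascending limb median -0.03. Podocyte, endothelial and smooth muscle markers had medians of -0.34, -0.24 and -0.36. Smooth muscle and mesangial markers were negative in 11 of 11. They had a median of -0.81 without BPH/2J Cmpd17b replicate 5, where 8 were under the unadjusted p. So were 655 of all 16529 genes tested there, in the negative direction.

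In the renin-angiotensin-aldosterone list, 13 genes were tested and the median was 0.07. Ren1, which encodes renin, stood at 89.3, 71.8, 83.6, 31.5 and 104 CPM in BPH/2J vehicle and at 88.6, 83.9, 89.4 and 174 CPM with Cmpd17b. In BPN/3J it ran from 133 to 169 CPM and from 80.7 to 175 CPM. The interaction was 0.57 (SE 0.41), and 0.26 without BPH/2J Cmpd17b replicate 5, the library at 174 CPM. Sgk1, an aldosterone-responsive kinase, was the member under the unadjusted p, at -0.81 (SE 0.29), with 31 to 51.4 CPM and 23.8 to 31.2 CPM in BPH/2J. Of 15 nitric oxide and endothelin genes 10 were negative (median -0.20, 0 under that p). Nos3, the endothelial synthase, had -0.14 (SE 0.28), Nos2 -0.66 (SE 0.59) and Ednrb, an endothelin receptor, -0.48 (SE 0.29). Adra2b, an adrenergic receptor of the kidney, had -0.43 (SE 0.21), with BPN/3J levels of 91.6 to 136 CPM and 99.6 to 144 CPM against 56.8 to 86.9 CPM over all BPH/2J libraries. Adrb3, the adrenergic gene under an unadjusted p of 0.05 and typical of fat cells, followed the fat markers, at 7.1 CPM in BPN/3J Cmpd17b replicate 1 and 2.73 CPM in BPH/2J vehicle replicate 4.

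The receptors on which Cmpd17b acts were too low to test. Of 15 genes for formylpeptide receptors, their ligands and the enzymes of lipid ligands, 5 passed the filter, and Fpr1 and Fpr2 were not among them. Anxa1, the gene of annexin A1, stood at 5.84, 15.4, 7.24, 11.5 and 8.05 CPM in BPH/2J vehicle and at 8.62, 7.2, 9.25 and 8.63 CPM with Cmpd17b. Its interaction was -0.39 (SE 0.34). The lipoxygenase genes Alox5 and Alox15 had 0.45 (SE 0.63) and -0.20 (SE 0.56), and Alox5ap, the activating protein, had -0.58 (SE 0.58). Saa1, an acute-phase ligand and the member under an unadjusted p of 0.05, was at 1.13 CPM or less in every library and at 0 in 8 of the 18.

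Medians were 0.03 for 23 cholesterol synthesis genes, 0.11 for 21 of fatty acid oxidation, 0.04 for 16 antioxidant genes and -0.02 for 15 of the unfolded protein response. Without BPH/2J vehicle replicate 5 they were -0.01 for cholesterol synthesis, -0.01 for fatty acid oxidation, 0.03 for antioxidant genes and -0.04 for the unfolded protein response. Cholesterol synthesis had 0 genes under an unadjusted p of 0.05, with Pmvk at -0.32 (SE 0.23) and Tm7sf2 at -0.26 (SE 0.15). Xbp1, of the unfolded protein response, had an interaction of 0.55 (SE 0.23), with 118 to 210 CPM and 99.6 to 133 CPM in BPN/3J, and Hsp90b1, an endoplasmic chaperone, had 0.22 (SE 0.20). Gclc and Hmox1, of the antioxidant list, had 0.55 (SE 0.38) and -0.49 (SE 0.32). Plin2, a lipid droplet protein, was at 27.9 CPM in BPH/2J vehicle replicate 5 and at 10.5 to 21.2 CPM in the other vehicle BPH/2J libraries. Its interaction was -0.38 (SE 0.26), and -0.19 without that library. Heat shock genes had a median of -0.21, with Hspa1a at -0.53 (SE 0.29), or -0.22 without BPH/2J vehicle replicate 4, and Dnajb1 at -0.21 (SE 0.13).

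Of 19 tested immediate early genes 11 were negative, with a median of -0.30. There were 3 negative under an unadjusted p of 0.05, beside 2.12% of all tested genes in that direction. Limma-voom gave 2, and leaving out any 1 library gave 2 to 6. Of 19 profibrotic signalling genes 14 were negative, with a median of -0.16 (-0.27 without BPH/2J vehicle replicate 5). Under that p were 2 negative and 1 positive, beside 2.12% and 0.88% of all tested genes. Atf3, a stress-induced transcription factor, stood at 0.666, 5.84, 1.6, 2.22 and 3.33 CPM in BPH/2J vehicle and at 0.838, 0.493, 1.33 and 0.463 CPM with Cmpd17b, with an interaction of -1.84 (SE 0.68). Ier3 ran from 19.2 to 28.5 CPM and from 11.9 to 18.1 CPM in BPH/2J, ranges apart, with an interaction of -0.57 (SE 0.22). Zfp7 ran from 15.2 to 20.8 CPM and from 10.5 to 12.6 CPM there, also apart, and had -0.44 (SE 0.16). Both were known from the BPH/2J effect. Ccn2, a matricellular target of TGF-beta, ran from 41 to 72.9 CPM and from 29.8 to 50.5 CPM in BPH/2J. In BPN/3J it stood at 20.4, 21.4, 20.4 and 55.1 CPM with vehicle and at 28.3 to 47.1 CPM with Cmpd17b. Its interaction was -1.07 (SE 0.39), and -1.57 without BPN/3J vehicle replicate 4, the library at 55.1 CPM. Grem1, a BMP antagonist, was too low for a fold, at 0.572, 0.0587, 0.637 and 0.134 CPM in BPN/3J vehicle, 0.102 CPM or less in BPN/3J Cmpd17b and 0.0671 to 1.64 CPM over BPH/2J libraries.

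Mitochondrially encoded transcripts took 12.8% to 26.6% of counts. Their share had an interaction of 1.62 percentage points (two-sided exact permutation test within strains, p = 0.555), with 12 of 13 genes positive and a median of 0.22. COX1 had 0.30 (SE 0.22) and ND2 0.31 (SE 0.23). BPH/2J Cmpd17b replicate 5 had the highest share, at 26.6% against 16.6% to 19.3% in the other treated BPH/2J libraries kept. Without it the interaction in this share was -0.58 percentage points. The share taken by the 10 most abundant genes had an interaction of 2.25 percentage points (exact permutation p = 0.549), and -0.63 without that library.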

How the data were processed

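Polyadenylated kidney RNA was sequenced from 19 mice in 4 groups that share batch label 2. The deposited file gives estimated counts for each gene, since 4.64% to 10.1% of a library's values were not whole. The submitters' processing notes name Trim Galore 0.6.7 for trimming, STAR 2.7.9a for alignment and build mm39. Which tool and annotation did the counting is not stated in those notes. Total counts per library ran from 21400111 to 40998650. The labels give 1 mouse per library, so p-values measure the spread between mice.

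Counts were rounded, 241 heart-enriched genes and then 1 library were taken out, and filterByExpr (minimum count 10, minimum total 15) kept 16245 genes. A robust edgeR 4.0.16 quasi-likelihood model of the 4 groups, with TMM factors and no covariate, was fitted under R 4.3.3, with Benjamini-Hochberg adjustment over all tested genes. The biological coefficient of variation was 0.25. CPM are on this TMM scale, except those of the left-out library and of Myh6, which use raw totals. The scripts were tested on simulated data. Lists are described by counts and medians, with no set test.

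Members and gene lists were chosen with earlier results of these data known. Named genes were the 12 smallest p in each direction (mean log2 CPM of 1 or more), all tested clock and formylpeptide genes, up to 2 per other pathway list, genes at the removal threshold, retained heart genes and 19 from the treatment effects. Adipoq, Cfd, S100a8, S100a9, Igtp, Gbp2, Tap1, Upk3a, C1qa, Cyp11a1, Gm15772 and Ftl1-ps2 were added with their values in view, and so were Csf3r and the measure of strain-private genes. Results for 3 of these genes are left out. The alternative settings comprised DESeq2 1.42.0, limma-voom 3.58.1, 1 surrogate variable (sva 3.50.0), a numeric covariate for the animals, a tested fold threshold, other scalings, filters and removal rules, and each library left out. Figures used matplotlib 3.10.9.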

Additional observations from a re-analysis of the deposited data

Results flagged for a closer look

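The check covered 444 groups of 4 or 5 libraries, over 109 named genes and the shares of mitochondrial and of the 10 most abundant transcripts. In 57 groups (12.8%), all of them for genes, 1 library had a gap to its nearest neighbour that was large for the group's range. The cut-off flags about 1 in 20 groups of normally distributed values. CPM need not be so distributed, and some flagged groups held 0 in their other libraries, so 12.8% is no measured excess. The checks are not independent, since libraries and gene choices are shared and 12 genes were added with their values in view. All values below are CPM.

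In BPH/2J vehicle, replicate 2 was high for immune, injury and matrix genes: C1qa at 18.9, C3 at 104, Col1a1 at 25, Col3a1 at 46.5, H2-DMb2 at 4.72, Icam1 at 25.5, Lcn2 at 11.5, Vcam1 at 38 and Bhlhe41 at 6.95. Replicate 4 was high for genes of fat and urothelium, with Adipoq at 8.42, Adrb3 at 2.73, Cfd at 35 and Upk3a at 11.4, and for the heat shock gene Hspa1a at 24.4. Replicate 5 was high for Ftl1-ps2 at 17.4, Gm15772 at 127, Igtp at 26.1 and Dnajb1 at 40.5. Replicate 1 was high for Slc9a3 at 187.

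In BPH/2J Cmpd17b, replicate 5 was high for Alox5 at 0.753, Dbp at 162, Ftl1-ps2 at 0.753, Icam1 at 20.4, Nos3 at 7.94, Ren1 at 174, Saa1 at 0.174, Tap1 at 5.62 and Tgtp1 at 3.65, and low for Bmal1 at 1.62. Replicate 3 was low for Bhlhe41 at 2.61 and Irf1 at 5.23 and high for Adrb3 at 0.0379, with 0 in the rest of its group. Replicate 4 was high for Plaat1 at 2.3 and Sgk1 at 31.2.

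In BPN/3J Cmpd17b, replicate 1 was high for fat genes, with Adipoq at 13.6, Adrb3 at 7.1 and Cfd at 50.6, and for Cyp11a1 at 0.0634. Replicate 5 was high for the interferon-regulated genes Gbp2 at 9.91, Igtp at 24.8, Iigp1 at 16.6 and Tgtp1 at 17.6, and for Ednrb at 25.2, Grem1 at 0.102 and S100a8 at 1.26. In BPN/3J vehicle, replicate 2 was high for Adra2b at 136, Alox15 at 0.792, C3 at 7.39, Cfd at 11.2, Cyp11a1 at 2.61, Padi2 at 7.07 and Saa1 at 0.0293. It was low for the clock genes Dbp at 120, Per1 at 15.2 and Tef at 336. Replicate 4 was high for Ccn2 at 55.1 and Gm15772 at 529.

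Among the removed genes, Myh6 was at 24.7 or more in each of the 4 treated BPH/2J libraries that were kept, above the highest vehicle or BPN/3J library at 1.84. How these transcripts entered the 4 libraries was not tested.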

How the results depend on the processing

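No paired analysis was possible because the labels give the animals no shared replicate numbers. The count of called genes was 0 in every setting run except with no genes removed, where 5 were called, 5 of them higher: Ckm, Myh6, Myl3, Pln and Tnnt2, all genes that the removal rule takes out. Counts at an unadjusted p under 0.05 (488 as reported) ran from 375 (without BPN/3J vehicle replicate 3) to 958 (without BPH/2J Cmpd17b replicate 5) when 1 library was left out, and were 997 with 1 surrogate variable, 1166 with no filter and 357 with all 19 libraries. With no filter, 1 gene had ranges apart and opposite in the strains. Library totals with no scaling put the median interaction of all genes at -0.102. Over 109 genes and 34 settings, 3651 of 3689 gene values kept their sign and 38 in 26 genes turned, 0 of them called on either side. The mitochondrial share ran from -0.578 to 2.75 points, and the share of the 10 most abundant genes from -0.63 to 3.91, with both lowest values found without BPH/2J Cmpd17b replicate 5. With all 19 libraries, the heart library included, the sign turned for Alox15 (0.038), Alox5ap (0.517), Anxa1 (0.243), C1qa (0.303), Col1a1 (0.548), Col3a1 (0.943), Col4a1 (0.0947), Csf1 (1.09), Dcn (2.02), Gpr27 (2.86), Hlf (-0.0545), Iigp1 (1.02), Islr (0.13), Kcnj10 (-0.0944), Nfil3 (0.268), Nos2 (2.02), Nos3 (0.823), Nr1d1 (0.0314), Plin2 (0.491), Slc16a1 (0.791) and Slc9a3 (-0.0935), and the cause was not tested. With 1 library left out, interactions that turned ran from -0.665 to 0.022 for Alox15, from -0.0849 to 0.678 for Alox5, from -0.589 to 0.0468 for Fn1, from -0.325 to 0.265 for Havcr1, from -1.09 to 0.316 for Lcn2, from -0.374 to 0.196 for Nfil3, from -0.271 to 0.0671 for Nr1d1 and from -0.133 to 0.504 for Plaat1. A 95% interval within 1 log2 unit of 0 was reached for 82.8% of the better expressed genes, and for the rest a difference of that size could not be bounded at this spread.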
